A study of Homo sapiens with 33 samples.

Results

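TNF-treated CaCo-2 cells were compared with TNF-treated THP-1 cells on 12 of the 33 deposited array columns, 5 of CaCo-2 (replicates 1, 2, 4, 5 and 6) and 7 of THP-1 (replicates 1 to 6 and 8). They were chosen by their labels. TNF columns at about 3 times the scale were left out because they repeat single columns, and CaCo-2 TNF replicate 3 was left out because its readings also stand under a control label. CaCo-2 is an adherent epithelial line from a human colon carcinoma, grown in DMEM with foetal bovine serum and detached with trypsin for passage. THP-1 is a human monocytic leukaemia line, grown in RPMI medium with serum and 2-mercaptoethanol. Both groups received TNF-alpha at 5 ng/ml for 60 min, and the unstimulated arrays used beside them (5 of each line) received none. Cell line and culture medium cannot be told apart in this design. Whether the CaCo-2 cultures had differentiated was not given in the sources used here.

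TNF-alpha is a cytokine of inflammation that binds receptors on many cell types and, through the kinase complex that marks NF-kB inhibitors for destruction, lets NF-kB enter the nucleus. Within the first hour it raises early genes such as those of AP-1 subunits, NF-kB inhibitors and cytokines. Monocytic cells carry leukocyte surface receptors, granule proteins and the machinery of cytokine release. Colon epithelial cells carry keratins, cell junctions and, as they mature, the brush border that villin helps to bundle.

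RNA was labelled with radioactive phosphorus and hybridised to membranes of 34560 cDNA spots, and levels are given here as log2 of the deposited intensity after quantile normalization. Excluded spots numbered 46 to 286 per array. Between 32% and 39.6% of spots read exactly 0, and the lowest reading above 0 was 0.099 to 0.117 except on CaCo-2 replicates 1 and 2, where it was 0.134 and 0.136. A spot could read 0 on some arrays and well above the lowest reading on others of its line, as PEG10 spot 50P19 did in CaCo-2 (0, 0, 0.348, 0.348 and 0.297), so readings of 0 were kept out of the level comparison and counted apart. Arrays of 1 line correlated at a median r of 0.9961 over the 7751 spots above 0 everywhere, and arrays of different lines at 0.9947. The labels do not say whether replicates came from separate cultures, so p-values reflect only how far arrays of a group lie apart, and that may be technical variation. In such bulk RNA, fewer cells expressing a gene and less RNA per cell cannot be told apart.

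Marker genes were set beside the line labels. They were chosen with earlier results of these data known, so they are not an independent check of the labels. Of 12 markers listed for THP-1, 5 had a named spot, and of 15 listed for CaCo-2, PEG10 among them, 4 had one. No named spot stood for CD14, LYZ, SPI1, EPCAM, KRT8, KRT20 or CDX2, so these defining genes could not be read. IL6R, the interleukin 6 receptor, and 1 spot of CD93, a receptor of monocytes and endothelium, were above 0 on 7 of 7 THP-1 arrays and 0 of 5 CaCo-2 arrays. LAPTM5, a lysosomal membrane protein of blood cells, was above 0 on 7 of 7 THP-1 arrays and 1 of 5 CaCo-2 arrays. PEG10, an imprinted gene derived from a retrotransposon, was above 0 at its spot 87I22 on 5 of 5 CaCo-2 arrays and 1 of 7 THP-1 arrays, and at spots 23I24 and 50P19 on 3 of 5 and 1 of 7 each. ELF3, a transcription factor of epithelia, went both ways: spot 88A17 was above 0 on 3 of 5 CaCo-2 and 0 of 7 THP-1 arrays, but spot 85B06 on 2 of 5 CaCo-2 and 6 of 7 THP-1 arrays. VIL1, which encodes villin, was higher in CaCo-2. Other markers gave no call: CDH17, an intestinal cadherin, differed by -0.03 at spot 71C16 (adjusted p = 0.817), CSF1R, the receptor of the monocyte growth factor, by -0.01 (adjusted p = 0.909) and PTPRC, the leukocyte phosphatase CD45, by -0.08 (adjusted p = 0.389) in limma. CDH17 spot 71O19 was above 0 on 2 of 5 CaCo-2 and 3 of 7 THP-1 arrays.

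IL6R spot 13A10 and STARD10 spot 71I20 were each above 0 on every array of 1 line and at 0 on every array of the other, with TNF and without it. A further STARD10 spot, 81A08, was above 0 on 5 of 5 CaCo-2 arrays and also on 3 of 7 THP-1 arrays with TNF and 3 of 5 without. The promoters of both genes, 250 bases before to 50 after the start from RefSeq on GRCh38.p14, are shown as 1 example for each line. CD93, SPINT2, VIL1 and SRGN are named only. The IL6R window is chr1:154405093-154405392 on the forward strand and the STARD10 window chr11:72793998-72794297 on the reverse strand. Capitals mark matches to GAGGAA, a core of sites bound by the myeloid factor PU.1, on either strand. TTTATG, a core of sites bound by the intestinal factor CDX2, was searched too.
IL6R: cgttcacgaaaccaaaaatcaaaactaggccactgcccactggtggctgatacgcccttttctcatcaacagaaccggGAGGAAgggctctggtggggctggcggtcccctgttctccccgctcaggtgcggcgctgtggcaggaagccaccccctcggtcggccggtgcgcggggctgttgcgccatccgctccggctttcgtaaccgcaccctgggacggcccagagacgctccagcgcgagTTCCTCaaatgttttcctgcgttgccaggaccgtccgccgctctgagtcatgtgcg
STARD10: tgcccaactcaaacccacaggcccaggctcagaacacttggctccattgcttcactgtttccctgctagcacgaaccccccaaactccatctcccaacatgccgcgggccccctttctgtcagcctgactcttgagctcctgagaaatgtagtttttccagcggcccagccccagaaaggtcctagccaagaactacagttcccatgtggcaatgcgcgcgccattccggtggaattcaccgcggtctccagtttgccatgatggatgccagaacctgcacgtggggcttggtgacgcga

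The IL6R window held 2 matches to GAGGAA, at position 79 on the forward strand and at position 245 on the reverse strand, and none to TTTATG. The STARD10 window held neither. GAGGAA occurred in 27.6% of all 27305 promoter windows of this length, in 8 of 18 windows of genes with a spot above 0 only in THP-1 (44.4%) and in 3 of 17 with a spot above 0 only in CaCo-2 (17.6%). Among genes whose level was called different it occurred in 11 of 29 windows of those higher in CaCo-2 (37.9%) and in 5 of 18 of those lower (27.8%). The windows of LAPTM5 and RAB25 held neither motif. TTTATG occurred in 11% of all windows, in 0 of the 18, in 2 of the 17, and in 2 of 29 and 1 of 18 windows of genes called higher and lower. A match describes letters, and binding was not measured.

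Levels differed modestly between the lines. Of 20750 spots with at least 3 readings above 0 in each line, 132 had an adjusted p under 0.05 in limma and are said to be called (0.636%), 88 higher in CaCo-2 (0.424%) and 44 lower (0.212%). The median size of a called difference was 0.18 on the log2 scale, against 0.03 over all tested spots, and the called values ran from -0.59 to 0.71. Of the called spots, 9 differed by 0.5 or more. Values of the lines did not overlap at 118 of the 132, against 1281 of all tested spots (6.17%). An unadjusted p under 0.05 was reached by 3563 spots (17.2%). The split by direction changed with the scaling, among other settings: 66.7% of calls were higher in CaCo-2 after quantile normalization, 84.3% after median normalization, 40% after cyclic loess and 39.7% without normalization. Of the 132 calls, 23 were made under all 4 (12 higher and 11 lower), and 46 held without each of the 12 arrays in turn. Of the called spots, 60 carried 1 human symbol that could be named, for 39 genes higher and 20 genes lower. The count rose to 439 without THP-1 replicate 8 and to 236 without CaCo-2 replicate 1. It fell to 56, 62, 72, 75 and 79 without THP-1 replicates 1, 2, 3, 4 and 6, and to 71 without CaCo-2 replicate 4. Without both CaCo-2 arrays of the highest lowest reading, replicates 1 and 2, it was 501, of which 459 were higher in CaCo-2.

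**Figure D1:**
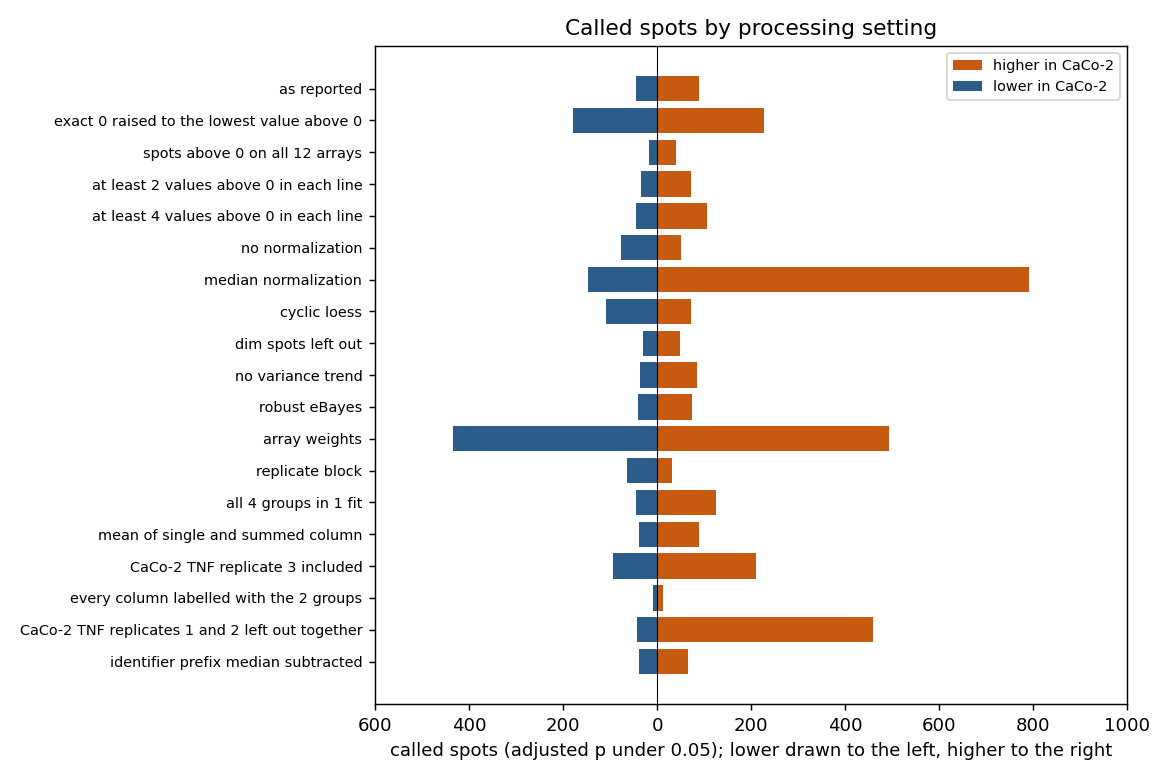
Number of called spots under each processing setting, with spots higher in CaCo-2 drawn to the right and spots lower to the left. The count was 132 as reported, 937 after median normalization, 928 with array weights and 21 with every labelled column.

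**Figure D2:**
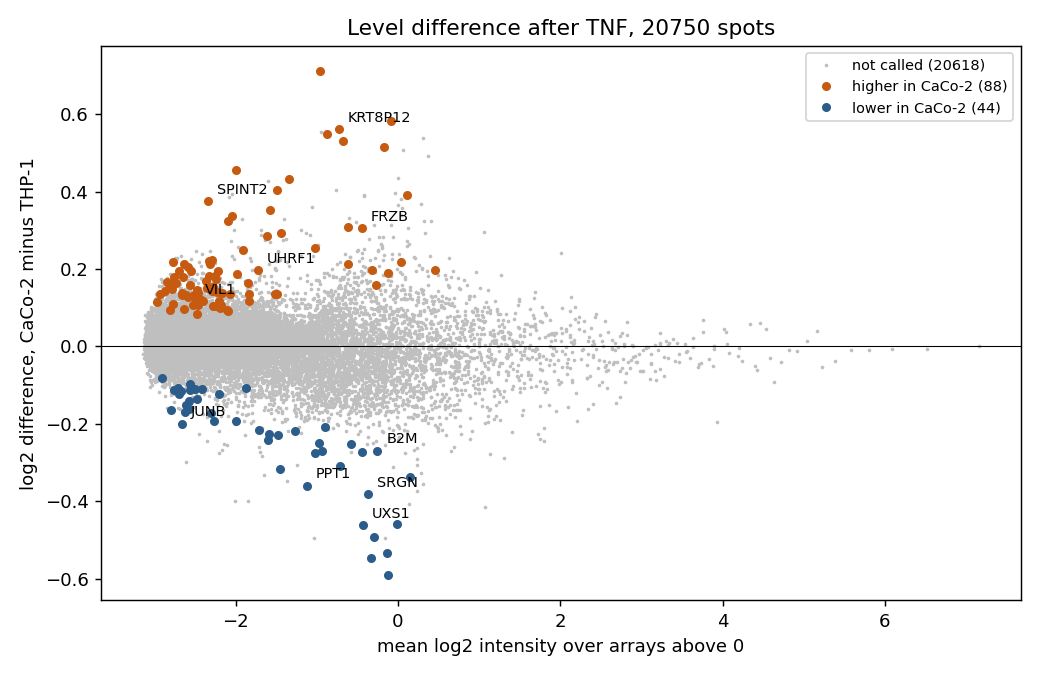
Difference between lines (log2, CaCo-2 minus THP-1, vertical axis) against mean log2 intensity over arrays above 0 (horizontal axis), 1 point per tested spot. The 88 spots called higher and 44 called lower lie among spots of low and middle intensity, with values from -0.59 to 0.71.

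Among genes called higher in CaCo-2, KRT8P12 had the largest difference. It is a pseudogene of keratin 8, a filament protein of simple epithelia, and a cDNA spot cannot tell it from near-identical copies. It read -0.69, -0.62, -0.04, -0.35 and -0.41 on the 5 CaCo-2 arrays, and from -1.01 to -0.95 with a median of -0.98 on 6 THP-1 arrays, with 1 more at 0. The lines did not overlap, and CaCo-2 arrays spread far more (SD 0.26, n = 5) than THP-1 arrays (SD 0.02, n = 6). The difference was 0.56 ± 0.09 (SE, adjusted p = 0.0145, limma), and it was called under all 4 normalizations and without each array. With 0 raised to the lowest value the call was lost.

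SPINT2, a membrane protease inhibitor of epithelia, was the 1 gene with 2 called spots. Spot 91I17 read -2.3, -2.25, -1.82, -1.97 and -2.33 in CaCo-2 and between -2.54 and -2.46 on 6 THP-1 arrays, a difference of 0.38 ± 0.08 (adjusted p = 0.044, limma). Spot 40H19 read -1.62, -1.63, -1.41, -1.21 and -1.38 in CaCo-2 and between -1.82 and -1.69 in THP-1, a difference of 0.29 ± 0.06 (adjusted p = 0.0432). Neither spot overlapped between lines, but the calls were lost without some arrays: 91I17 kept it in 5 and 40H19 in 4 of 12 fits with 1 array left out. Spot 60C16 differed by 0.29 (adjusted p = 0.14), and spot 40A05 by -0.07 (adjusted p = 0.404).

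VIL1 read -2.41, -2.47, -2.4, -2.42 and -2.46 in CaCo-2, and on 5 of 7 THP-1 arrays between -2.61 and -2.5. The lines did not overlap, and the difference was 0.12 ± 0.02 (adjusted p = 0.044, limma). That call held in 5 of 12 fits with 1 array left out and was lost without normalization and after loess. FRZB, a secreted Wnt antagonist, read -0.36, -0.36, -0.05, -0.25 and -0.33 in CaCo-2 and between -0.66 and -0.5 in THP-1. Its difference of 0.31 ± 0.05 (adjusted p = 0.0187) held without each array and was lost under median normalization.

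UHRF1, PCLAF, TPX2, SERPINH1 and NECTIN3 were also called higher in CaCo-2, by smaller differences. UHRF1, which helps to copy DNA methylation after replication, was the 1 member called of 25 cell cycle genes tested (10 had an unadjusted p under 0.05, or 40%, against 17% of all 6866 genes tested by their brightest spot), at 0.20 ± 0.04 (adjusted p = 0.0231, limma). It read -1.76, -1.58, -1.53, -1.56 and -1.64 in CaCo-2 and between -1.87 and -1.73 in THP-1, where the lines overlapped on 1 CaCo-2 array. UHRF1 spot 34G09 differed by -0.02 (adjusted p = 0.779, limma). Of the 10, MCM4 and CDC6 were lower in CaCo-2, by -0.11 and -0.15, and the others higher. The median of the cell cycle list was 0.017, against 0.019 over all genes, of which 0.408% were called higher. PCLAF, a partner of the replication clamp, differed by 0.14 (adjusted p = 0.0111), and by -0.08 without a call when 0 was raised to the lowest reading. TPX2, a spindle assembly factor, differed by 0.15 (adjusted p = 0.0197). SERPINH1, the collagen chaperone HSP47, differed by 0.14 (adjusted p = 0.0307) and NECTIN3, an adhesion protein of junctions, by 0.12 (adjusted p = 0.0174). The PCLAF, NECTIN3, TPX2 and SERPINH1 calls were lost without normalization. EFCC1, RFWD3, HDHD3, PCYOX1, RNF181, NETO1, EIF6 (a factor of ribosome assembly), CBX1 (a heterochromatin protein) and PSMC6 (a proteasome subunit) made up the remaining genes of largest increase, with differences from 0.21 to 0.40. RFWD3, a ubiquitin ligase of DNA repair, was called under all 4 normalizations but in only 5 of 12 fits with 1 array left out.

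Genes called lower in CaCo-2 were led by UXS1, ALMS1, SRGN and PPT1. Of the 44 spots, 11 were called under all 4 normalizations, against 12 of the 88 higher ones. UXS1, which makes UDP-xylose for proteoglycan chains, read -0.81, -0.73, -0.64, -0.62 and -0.71 in CaCo-2 and between -0.4 and -0.04, with a median of -0.23, in THP-1. The lines did not overlap, and the difference was -0.46 ± 0.05 (adjusted p = 0.00232, limma). That holds for spot 31B10 of UXS1. Its spots 30A16 and 29C11 differed by 0.07 and 0.01 (adjusted p = 0.205 and 0.824, limma), the former without overlap. SRGN, the granule proteoglycan serglycin of blood cells, read -0.67, -0.61, -0.58 and -0.57 on 4 CaCo-2 arrays, 0 on the fifth, and between -0.41 and -0.09 in THP-1. Its difference was -0.38 ± 0.06 (adjusted p = 0.0169), or -0.89 and not called with 0 raised to the lowest reading. PPT1, a lysosomal enzyme that removes fatty acids from proteins, read -1.37, -1.34, -1.33, -1.25 and -1.37 in CaCo-2 and between -1.11 and -0.88 in THP-1. Its difference of -0.36 ± 0.04 had the smallest adjusted p of the named genes (0.0016). All 3 were called under all 4 normalizations and without each array, as were ALMS1, a centrosomal protein, at -0.46 ± 0.07 and IRF2BP2, a transcriptional corepressor, at -0.27 ± 0.04. ALMS1 spot 02P10 differed by 0.02 (adjusted p = 0.645, limma). IRF2BP2 spots 02O22, 09G15, 20C24 and 46F09 differed by -0.03, 0.02, 0.002 and -0.003, and its spot 03L16 by -0.11 (adjusted p = 0.144).

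B2M, the light chain of MHC class I molecules, read -0.52, -0.45, -0.35, -0.34 and -0.37 in CaCo-2 and between -0.28 and -0.04 in THP-1. The lines did not overlap, and the difference was -0.27 ± 0.05 (adjusted p = 0.0297, limma), a call lost after median normalization and after loess. The spot of HLA-E, a class I heavy chain, was above 0 on 7 of 7 THP-1 arrays and on 1 of 5 CaCo-2 arrays, replicate 1. Deposited intensities were 0.298 to 0.316 in THP-1 and 0.337 on that CaCo-2 array. After quantile normalization the CaCo-2 reading was -1.73, within the THP-1 range of -1.75 to -1.68. Among 12 tested interferon and antigen presentation genes B2M alone was called, and the list's median difference was 0.008 against 0.019 over all genes. ADAR, an RNA-editing enzyme, and TRIM56, a ubiquitin ligase of antiviral sensing, were called at -0.11 each, in 2 and 5 of 12 fits with 1 array left out.

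Of the genes that answer TNF within the hour, the TNF spot and JUNB spots 22G16 and 89L10 read lower in CaCo-2. They did so without overlap after quantile normalization, and JUNB spot 22G16 alone passed the test. BTG1 spot 46J18 and CXCL10 spot 69F07 read higher in CaCo-2 without overlap, by 0.06 each (adjusted p = 0.169 and 0.178, limma). TNF itself, a target of the NF-kB it activates, read 0 on CaCo-2 replicate 1, then -1.35, -1.36, -1.33 and -1.38, and in THP-1 -0.53, -0.53, -0.87, -0.92, -0.83, -1.33 and -0.99. The lines did not overlap, although THP-1 replicate 6 came close to CaCo-2. The difference of -0.49 ± 0.12 missed the threshold (adjusted p = 0.071, limma) and passed it without normalization and after median normalization. Without TNF its spot was above 0 on 5 of 5 THP-1 and 2 of 5 CaCo-2 arrays. JUNB, an AP-1 subunit, read at spot 22G16 between -2.81 and -2.76 in CaCo-2 and -2.49, -2.56, -2.52, -2.5, -2.65, -2.72 and -2.64 in THP-1. Its difference was -0.20 ± 0.04 (adjusted p = 0.0209), lost without normalization and under median normalization. Without TNF the same spot differed by -0.03 ± 0.05, from 3 CaCo-2 and 5 THP-1 arrays. The change of the line difference was -0.17 (unadjusted p = 0.0169, adjusted p = 1, limma interaction), so no treatment-specific difference was called. JUNB spot 54O01 was above 0 on 7 of 7 THP-1 and 1 of 5 CaCo-2 arrays with TNF, and on 3 of 5 and 4 of 5 without it. Its 1 CaCo-2 reading, -1.25, lay within the THP-1 range of -1.31 to -1.19. JUNB spot 89L10 read -2.94 to -2.91 on 3 CaCo-2 arrays and -2.9 to -2.74 on 5 THP-1 arrays. That difference was -0.10 (adjusted p = 0.172, limma).

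Other members of these pathways did not pass. Of 19 early TNF response genes tested by their brightest spot, 0 were called, with 5 at an unadjusted p under 0.05 (26.3%, against 17% of all genes so tested) and a median of 0.009. Their summed intensity was 3.61 to 5.12 in CaCo-2 and 5.12 to 6.18 in THP-1. Of the 5, TNF and PPP1R15A were lower in CaCo-2, and BTG1, CXCL10 and EGR3 were higher. SOD2, the mitochondrial superoxide dismutase, differed by -0.12 at spot 32C13 (adjusted p = 0.17) and IER3, an early survival gene, by 0.04 (adjusted p = 0.515). Of 18 NF-kB and TNF receptor signalling genes, 0 were called in limma, 1 had an unadjusted p under 0.05, and the median was -0.01. That 1 was NFKBIZ, a nuclear NF-kB regulator, at -0.20 ± 0.05 (adjusted p = 0.0653). It read -1.95 to -1.91 in CaCo-2 and -1.91 to -1.59 in THP-1. TNFAIP1, which was first found as a TNF-induced gene, was called higher in CaCo-2 at 0.18 (adjusted p = 0.0294).

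Lists of lineage genes contained few calls. For comparison, 28 of 6866 genes tested by their brightest spot were called higher (0.408%) and 12 lower (0.175%), 1167 had an unadjusted p under 0.05 (17%), and the median was 0.02. Of 10 monocyte and macrophage markers tested and of 14 leukocyte surface genes, 0 were called in limma, with 1 and 3 at an unadjusted p under 0.05 and medians of 0.005 and 0.009. The 1 monocyte marker, LILRB1, was higher in CaCo-2, by 0.12. Of the 3 leukocyte genes, BTK and LCP2 were lower in CaCo-2, by -0.14 and -0.16, and IKZF1 was higher, by 0.06. Summed intensities were taken over all list genes whose spot was read on all 12 arrays, tested or not, and were not normalized. Over 21 monocyte genes the sum ran from 2.62 to 3.26 in CaCo-2 and from 3.58 to 4.56 in THP-1. Over 25 leukocyte genes it ran from 5.21 to 6.71 and from 7.17 to 7.92. The sum counts a reading of 0 and the level leaves it out, so genes mostly at 0 in 1 line enter only the sum. Genes that both lines use gave sums of 8.64 to 9.89 in CaCo-2 and 9.87 to 11 in THP-1 for the respiratory chain, and of 2.36 to 3.21 and 2.9 to 3.42 for ribosomal proteins, with overlap in both lists. Of 14 lysosome and granule genes 1 was called, SRGN. Of 4 enterocyte genes 1 was called, VIL1. Of 13 keratin, junction and adhesion genes 0 were called by their brightest spot, with 6 at an unadjusted p under 0.05 (46.2%) and a median of 0.03. Of these 6, CLDN4 was lower in CaCo-2, by -0.15, and the others were higher. Of 15 fibroblast and endothelial markers tested 0 were called and 1 had an unadjusted p under 0.05. The summed intensity of 18 genes of that list was 3.51 to 5.05 in CaCo-2 and 3.62 to 4.83 in THP-1. In the remaining lists 0 were called in limma, with an unadjusted p under 0.05 for 1 of 14 haematopoietic and 3 of 11 epithelial transcription factors, 4 of 10 oncofetal genes (40%), 6 of 24 Wnt pathway genes (25%), 2 of 6 ribosomal protein genes (33.3%), 7 of 16 respiratory chain genes (43.8%), 0 of 3 lymphocyte markers and 0 of 1 erythroid marker.

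Spots above 0 in 1 line only were counted apart. Of 34446 spots read on at least 4 CaCo-2 and 6 THP-1 arrays, 38 were above 0 on every read CaCo-2 array and at 0 on every read THP-1 array (0.11%), and 41 the reverse (0.119%). Fisher's exact test called 0 spots after adjustment, because the smallest p that 5 and 7 arrays gave was 0.00126 (adjusted p = 0.572), while 1335 spots had an unadjusted p under 0.05. With 0 raised to the lowest reading, limma called 407 spots (1.18%), among them 75 of these one-line spots. The way one-line spots were chosen largely fixed those 75 calls in advance, so they add no support. With 1 array fewer to satisfy, the CaCo-2 count was 62, 66, 71 and 63 without CaCo-2 replicates 1, 2 and 6 and THP-1 replicate 8. The THP-1 count was 66, 69, 71, 76 and 70 without CaCo-2 replicates 1, 2, 4, 5 and 6.

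On the THP-1 side stood 1 spot each of CD93, IL6R, PYCARD, SMAP2, GHDC, FZD6, PREX1, MAP3K3, ZNF75A and MRPL19 among others. Without TNF, however, these spots of SMAP2, GHDC, FZD6 and PREX1 were above 0 on 3 of 5 CaCo-2 arrays each. Those of ZNF75A were so on 2 of 5, those of MAP3K3 and MRPL19 on 1 of 5, and those of CD93 and IL6R on 0 of 5. Further spots of such genes were counted as well. Of 23 genes on the THP-1 side 17 had further spots, and for 16 of these a further spot was above 0 on some CaCo-2 array. PREX1 spot 04F23 was so on 5 of 5 CaCo-2 arrays, MAP3K3 spot 93D10 on 4 of 5, and SMAP2 spot 86I16 and ZNF75A spot 50L16 on 3 of 5. Of 20 genes on the CaCo-2 side 11 had further spots, and for all 11 a further spot was above 0 on some THP-1 array. The same share over all genes was not computed. Only 837 of all 34560 spots were at 0 on all 12 arrays, so these counts do not set the one-line genes apart. IL6R read 0.172, 0.159, 0.17, 0.164, 0.163, 0.157 and 0.145 on the THP-1 arrays. CD93 read 0.224 to 0.241 at spot 13M08. Its spot 22N20 was above 0 everywhere, at 0.165 to 0.233 in CaCo-2 and 0.196 to 0.241 in THP-1, and differed by -0.15 ± 0.03 (adjusted p = 0.0618, limma), while spot 68E17 differed by 0.01. The spots of CD93 thus gave different readings of the same gene. PYCARD, the inflammasome adaptor ASC, had a mean intensity of 0.161 in THP-1, and the one-line spot of PREX1, an exchange factor of leukocyte migration, of 0.25.

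On the CaCo-2 side spot 60D01 of AFDN, the junction protein afadin, was brightest, at 0.429, 0.44, 0.415, 0.407 and 0.33. Without TNF, however, that spot was above 0 on 5 of 5 CaCo-2 and 4 of 5 THP-1 arrays, and AFDN spot 42C05 was above 0 on all 12 TNF-treated arrays with a difference of 0.04. STARD10, a lipid transfer protein, read at spot 71I20 0.188, 0.197, 0.151, 0.186 and 0.177, and RAB25, a small GTPase of epithelial recycling, had a mean of 0.164. PEG10 spot 87I22 read 0.245, 0.248, 0.24, 0.232 and 0.193 in CaCo-2 and 0.202 on THP-1 replicate 8. LAPTM5 read 0.295 to 0.311 in THP-1 and 0.312 on the 1 CaCo-2 array where it was above 0, replicate 2. These are deposited intensities. After quantile normalization that CaCo-2 reading was -1.85, below the THP-1 range of -1.77 to -1.68.

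**Figure D3:**
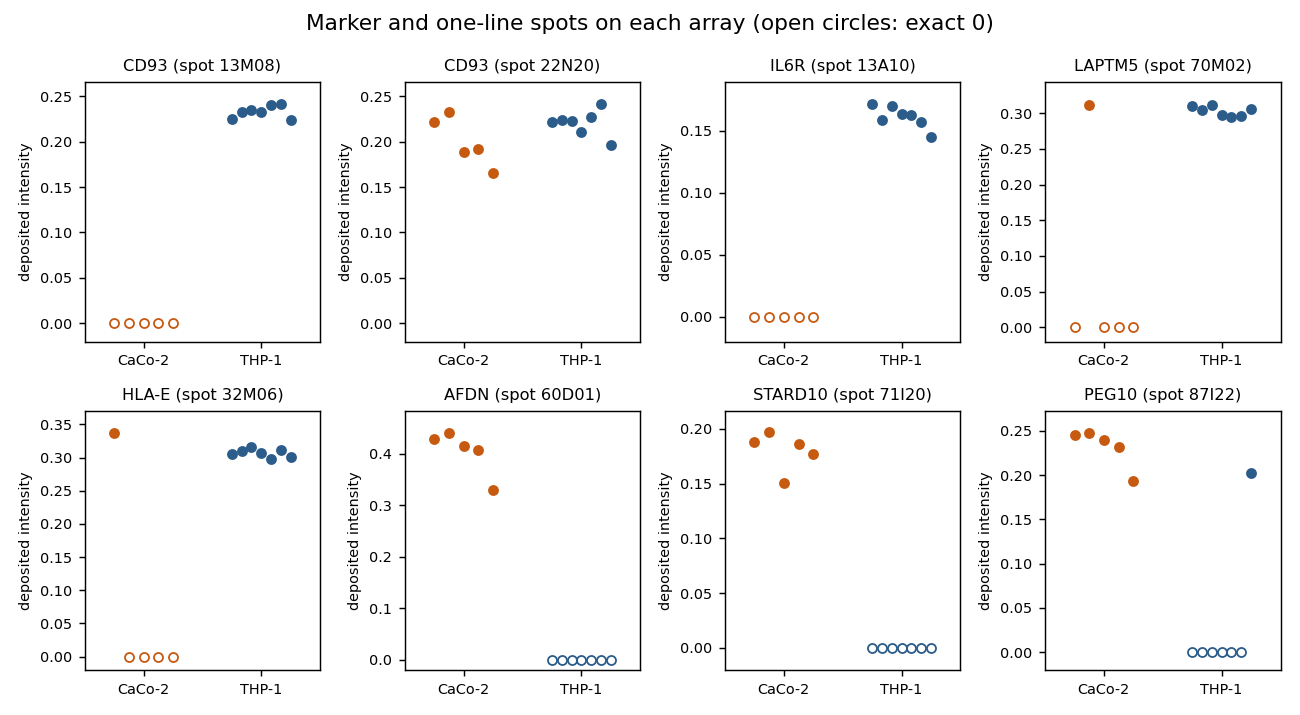
Deposited linear intensity of 8 spots on each TNF-treated array, with open circles for readings of exactly 0. CD93 is at 0 in CaCo-2 at spot 13M08 and above 0 on all 12 arrays at spot 22N20, and LAPTM5, HLA-E and PEG10 each have 1 array that departs from its line.

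Unstimulated arrays, which share no column with the TNF-treated ones, gave the same direction for most calls. Of the 132 called spots 128 could be tested there, and 126 had the same sign (98.4%), against 71.8% of all 16931 spots tested in both. Spots called higher had a median of 0.165 with TNF and 0.106 without, and spots called lower -0.208 and -0.185. The spots were chosen on the TNF-treated arrays, which by itself favours larger differences on those arrays. Of the 128, 83 had the same sign and an unadjusted p under 0.05 without TNF, where 13.3% of all spots had such a p, and 11 were called. PPT1 differed by -0.35 ± 0.03 there (adjusted p = 0.0014, limma), UXS1 by -0.50 ± 0.06 (adjusted p = 0.0136) and KRT8P12 by 0.77 ± 0.10 (adjusted p = 0.0136). SRGN differed by -0.33, SPINT2 by 0.32 and 0.29 at its called spots and UHRF1 by 0.29, each short of the threshold. In all, 20 of 19420 spots were called between unstimulated lines (0.103%). Some CaCo-2 arrays of both treatments shared features of scale. The lowest reading above 0 was 0.13 on unstimulated CaCo-2 replicate 1, and 0.134 and 0.136 on TNF replicates 1 and 2. The highest intensity was 134.6 on unstimulated CaCo-2 replicate 5 and 133.4 on TNF replicate 6. Whether a technical difference between the lines adds to the shared direction was not tested.

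A change of the line difference with TNF was called at 0 of 16931 spots in limma, with 545 at an unadjusted p under 0.05 (3.22%), so no difference given here was called particular to TNF-treated cells. Of the 128 called spots, 23 had such an unadjusted p. These spots were chosen by their difference on the same TNF-treated arrays that enter the interaction. That choice by itself favours small p-values there, so the count of 23 adds no support. PCLAF differed by 0.14 with TNF and 0.01 without, and NECTIN3 by 0.12 and 0.02, both chosen after their values were seen. Of the spots above 0 only in CaCo-2, 6 were also so without TNF and 29 of 38 were above 0 more often in CaCo-2. For THP-1, 8 of 41 were also so and 34 were more often above 0. The named ones among the 6 were spots of STARD10, PARG, CTTN and KRTCAP3, and among the 8 spots of IL6R, CD93 and MAPK8IP3, a selection made after their values were seen.

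**Figure D4:**
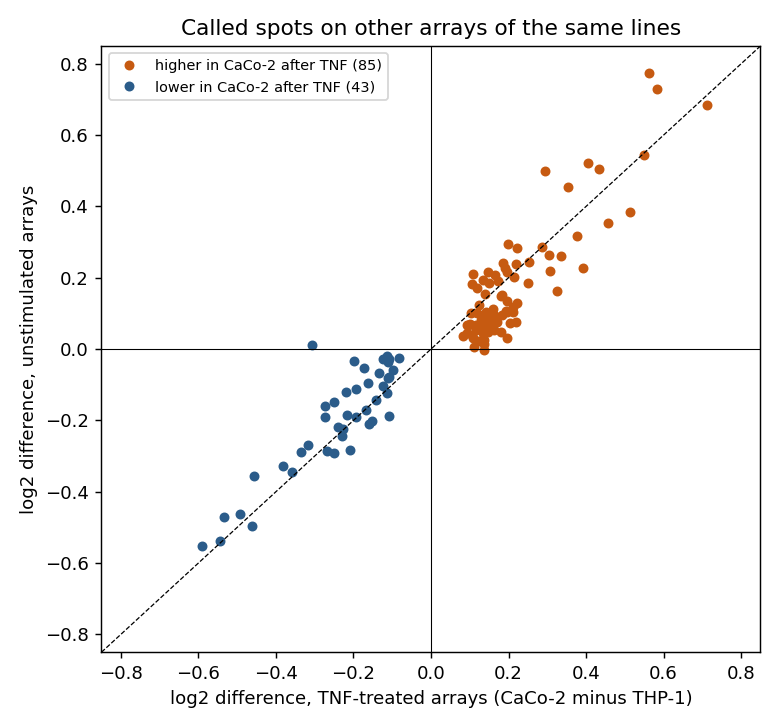
Difference between lines (log2) on unstimulated arrays against that on TNF-treated arrays for the 128 called spots tested in both, with the dashed line of equality. All but 2 spots keep their sign.

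Several spots of 1 gene did not always move together. The 59 genes called had 81 further spots for 30 of them, and 61 of these were tested. Of the 61, 39 differed in the direction of the called spot, 14 of them at an unadjusted p under 0.05, and 2 differed in the opposite direction at such a p. Among all tested spots 63.9% read higher in CaCo-2, and 17.2% had such a p in either direction. The count of 39 is therefore not read as agreement between spots of a gene. The median difference of the further spots was 0.0295 for genes called higher and -0.00196 for genes called lower. A plain mean over the spots of a gene left 8 genes called and reversed the direction of FRZB (-0.04), PCYOX1 (-0.14), ALMS1 (0.13) and ANKRD17 (0.27), none of them then called. In that mean the spots that enter differ between arrays, since spots at 0 are missing. With each spot centred on its own mean first, an alternative chosen after that reversal was seen, 58 genes were called and those 4 kept their direction. A call is a statement about its spot.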

How the data were processed

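The deposited table holds linear array intensities of 33 columns, made by the authors from membranes hybridised with radioactively labelled cDNA, per the labels' protocols. How images were read, background treated or values normalized before deposit is, in the sources used here, not given. The precision of a difference rests on the number of readings above 0 and on their spread between arrays. Negative codes were set to missing. Readings of exactly 0 were missing in the level test and counted apart. Log2 intensities above 0 on the 12 arrays were quantile normalized, and spots with at least 3 readings in each line entered a two-sided limma test (version 3.58.1, R 4.3.3) whose eBayes step models the variance as a trend of intensity. Their p-values were adjusted together by Benjamini-Hochberg, and a spot with an adjusted p under 0.05 is said to be called. Presence above 0 was tested with Fisher's exact test. The unstimulated comparison used 5 arrays of each line, with THP-1 control replicate 3, a summed column, divided by 3, and the interaction used both treatments.

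Of the spots, 18025 carry 1 symbol in the platform annotation, 858 several and 15677 none, and 17928 matched the human RefSeq table (GRCh38.p14). Spots with several symbols were not named. Gene lists used the brightest spot of each gene and no set test. Named genes were up to 12 of largest difference per direction among called spots with 1 symbol, up to 8 per line of the brightest one-line spots, up to 3 of smallest p per list and a fixed set of TNF and line genes, and a selection is printed. ADAR, TRIM56, SOD1, CLCN7, SPTAN1, TPX2, PCLAF, NECTIN3, SERPINH1, TNFAIP1, RAB25, PYCARD and the further spots of SPINT2 were added to these after their values were seen. The members and lists were chosen with earlier results of these data known. Replicate numbers were checked for pairing and were not used as a block. The fit was tested on simulated data.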

Additional observations from a re-analysis of the deposited data

Results flagged for a closer look

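In 104 sets of 4 to 7 arrays, 6 held an array far from the others, where about 1 in 20 sets, or 5.2, would by chance. CaCo-2 replicate 6 had a highest intensity of 133.4, against 143.2 to 144.3 on the other TNF-treated CaCo-2 arrays compared. Unstimulated CaCo-2 replicate 5, outside these sets, had 134.6. THP-1 replicate 6 had 286 excluded spots, against 46 to 135. HDHD3 read -0.48 on THP-1 replicate 5 and -0.84 to -0.74 on the others of that line. CD93 spot 68E17 read -2.26 on THP-1 replicate 8 and -2.33 to -2.30 elsewhere in THP-1. CLCN7 read -2.60 on THP-1 replicate 4 and -2.69 to -2.66 elsewhere in THP-1. TRIM56 read -2.565 on CaCo-2 replicate 5 and -2.577 to -2.576 on the other 3 CaCo-2 arrays above 0, a gap that is small in size.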

How the results depend on the processing

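The count of 132 called spots (88 higher and 44 lower in CaCo-2) was within 1.5 times with at least 2 or 4 readings per line, without a variance trend, with robust eBayes, with all 4 groups in 1 fit, with the mean of single and summed columns and with the identifier-prefix median subtracted. It was 407 (227 and 180) with 0 raised to the lowest reading, 58 (41 and 17) over spots above 0 on all 12 arrays, 937 (790 and 147) after median normalization, 928 (493 and 435) with array weights, 80 (49 higher) with dim spots left out, 304 (210 and 94) with CaCo-2 replicate 3, 21 (13 and 8) with every labelled column, 8 (4 and 4) as a plain mean over spots of a gene and 58 (45 and 13) as a mean of centred spots. Without normalization 50 were higher and 76 lower, and after loess 108 were lower. Without CaCo-2 replicates 1 and 2 it was 501 (459 higher). With 1 array left out it ran from 56 to 439, from 33 to 198 higher and from 20 to 259 lower. With the replicate number as a block, 95 spots were called, 31 of them higher and 64 lower, and 38 of the 132 were kept. Same-numbered arrays correlated at 0.283, 0.239, 0.0785, 0.302 and -0.0159 in their deviations, and 2 of 5 CaCo-2 arrays correlated best with their own number. Not every pair was above 0.1, so the numbers were not taken as pairs.

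One-line spots numbered 44 to 71 for CaCo-2 and 45 to 76 for THP-1 with 1 array left out, 24 for CaCo-2 with replicate 3, 9 and 16 at a mean intensity of at least 0.2, 18 and 14 with every labelled column, and 135 and 130 without CaCo-2 replicates 1 and 2. The unstimulated count of 20 was 156 with 0 raised and 27 without THP-1 control replicate 3. The interaction count stayed 0 in limma with 0 raised and without normalization.

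Directions reversed as follows, and the cause was not tested. With 0 raised: CD93 spot 68E17 (-0.339), IER3 (-0.512), PCLAF (-0.0778) and SPTAN1 (-0.101). After median normalization: JUNB spot 89L10 (0.00892) and CD93 68E17 (-0.00465). After loess, CD93 68E17 (-0.0261), and with the mean of single and summed columns (-0.112). With every labelled column: JUNB 89L10 (0.000213), CD93 68E17 (-0.0789) and IER3 (-0.123). As a plain mean over spots: FRZB (-0.0403), PCYOX1 (-0.14), ALMS1 (0.131), ANKRD17 (0.274), SPINT2 40A05 (0.18), CD93 68E17 (-0.123) and SOD2 (0.0263). As a mean of centred spots: SPINT2 40A05 (0.216) and CD93 68E17 (-0.0886). The alternatives with CaCo-2 replicates 1 and 2 left out, the prefix median and the centred spots were chosen after seeing the data.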

Other observations

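Spots whose identifier begins with 01 held 12 of the 132 calls, all higher in CaCo-2, among 376 tested (3.19%), and no other of the 90 prefixes held more than 5. The median difference of that prefix was 0.0175, at rank 42 of the 90. Among the named genes, PSMC6, NETO1 and SOD1 lie there. Spots that the platform annotation gives the mouse symbol Ctsl numbered 12, of which 9 were tested and 3 called higher in CaCo-2, with differences from 0.0282 to 0.353.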
